A study of Mus musculus with 6 samples.

Results

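The genes described here are those of respiratory complex I, taken as every row of the deposited expression table whose symbol begins with Nduf: 43 of 14148 genes. They comprise 35 structural subunits, 7 assembly factors of the Ndufaf series, and Ndufa4, which was first assigned to complex I and later to complex IV and is counted apart. The RNA came from microglia, the macrophages that live within brain tissue, of male C57BL/6 mice aged 18 months. Cells from the hippocampus, live and positive for CD11b with low CD45, were stained with BODIPY, a dye for neutral lipid, and sorted by its brightness into a dim fraction with few lipid droplets (LD-low) and a bright one with many (LD-high). Each group has 3 libraries and each library pools the hippocampi of 3 mice. No treatment or transgene is given for either group, and nothing in the labels says whether the pools hold different mice, so the p-values measure the spread between these libraries, which may in part be technical.

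Complex I passes electrons from NADH to ubiquinone and pumps protons across the inner mitochondrial membrane. It is shaped like an L: a matrix arm holds the NADH site and the chain of iron-sulfur clusters, and a membrane arm holds the proton channels. A set of core subunits carries the catalytic reaction, the accessory subunits surround and stabilise this core, and assembly factors help to build the enzyme without staying in it. Its core membrane subunits are encoded by mitochondrial DNA and are not analysed here. In macrophages the enzyme is known both for its part in the making of ATP, through the protons it pumps, and, under some conditions, as a site where superoxide is formed.

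Libraries held between 15895576 and 38489448 reads in genes. The microglial genes P2ry12, Tmem119, Cx3cr1, Csf1r, Sall1, Siglech and Gpr34 were abundant in every library, with summed levels of 1087610 to 1274260 normalized counts (reads divided by 1 size factor per library) in LD-low libraries against 1011000 to 1205180 in LD-high libraries. Of these genes, 3 had a higher mean log2 level in LD-high libraries and 4 a lower one, and 0 were called in limma. The largest difference on that scale was that of Cx3cr1, with means of 142107 normalized counts in LD-low libraries against 113674 in LD-high libraries. Some genes of other cells differed between the groups. Neutrophil and choroid plexus markers held called genes in limma, while 0 of the astrocyte, myelin and border macrophage markers were called. Of 8 neutrophil markers 7 were in the table, with sums of 1222 to 4563 in LD-low libraries against 0 in all LD-high libraries. Of them Ngp, Ltf, S100a9, S100a8, Lcn2 and Camp fell (limma). The 7 choroid plexus epithelium markers summed to 363 to 1790 in LD-low libraries against 1717 to 5581 in LD-high libraries, and Enpp2, Kl and Ttr among them rose. The 6 astrocyte markers summed to 6466 to 7795 and 7949 to 8855, almost all of it Slc1a3, whose means were 7183 and 8463 (not called), while Gfap, Aqp4 and Slc1a2 were under 20 normalized counts in every library and had lower means in LD-high ones. Of 8 myelin markers 7 were in the table, mostly as Cnp, Mbp and Mag, with sums of 4648 to 4896 and 5453 to 6013, while Mog and Mal had under 11 normalized counts in every library. The 8 border macrophage markers summed to 254 to 557 in LD-low libraries against 167 to 416 in LD-high libraries.

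Setting both fractions side by side asks whether microglia with many lipid droplets differ in the transcripts of complex I. The structural subunits leaned upward in LD-high libraries by a small amount, while the assembly factors went both ways and did not lean together. Of the 35 structural subunits, 31 had a log2 change (LD-high minus LD-low, of normalized count + 1) above 0 and 4 below, with a median of 0.11, or 7.89%, and a range of -0.22 to 0.27. Of the 7 assembly factors, 3 lay above 0 and 4 below, with a median of -0.04 and a range of -0.32 to 0.37. Over all 11624 genes tested, 48.7% lay above 0 and the median was -0.01.

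No single member passed the test in the fit without a replicate block. In limma with Benjamini-Hochberg adjustment over all genes (threshold 0.05), 0 of the 43 members were called, where 3.36% of all tested genes were called, 1.53% as higher and 1.82% as lower in LD-high libraries. All 43 members passed the filter on low values. At an unadjusted p under 0.05 there were 4 of 43, or 9.30%, a smaller share than the 19.8% of all tested genes. Count tests on the recovered reads called 0 members as well, where edgeR called 3.24% and DESeq2 6.27% of all genes. The standard errors of the members lay between 0.07 and 0.24 on the log2 scale, and for the structural subunits the 95% intervals at their furthest reached -0.50 (Ndufa3) and 0.60 (Ndufb4).

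**Figure D1:**
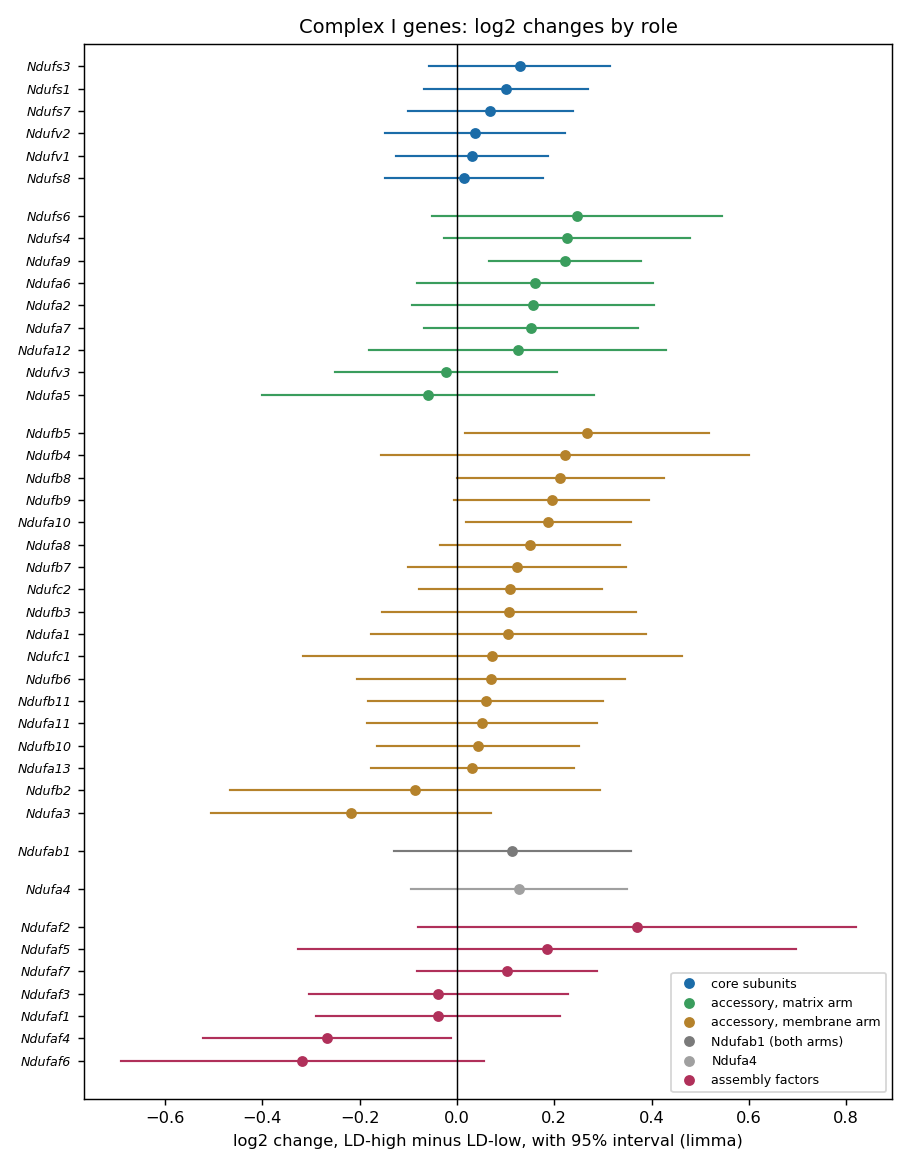
Log2 change (LD-high minus LD-low; x axis) of 42 of the 43 genes, grouped by role, with points for the limma estimate and lines for its 95% interval. Nearly all structural subunits lie to the right of 0 except Ndufa3, Ndufa5, Ndufb2 and Ndufv3, the 7 assembly factors fall on both sides, and only the intervals of Ndufa9, Ndufa10, Ndufb5 and Ndufaf4 leave out 0.

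Complete separation of the groups was more frequent among the structural subunits than among all genes, in the upward direction. The 3 LD-high values all lay above the 3 LD-low values in 12 of 35 structural subunits, or 34.3%, where this held for 12.7% of all tested genes. The opposite order was found in 0 structural subunits, where it held for 11.7% of all tested genes. Among the assembly factors, 1 of 7 had LD-high values that all lay higher (Ndufaf2) and 1 of 7 values that all lay lower (Ndufaf6). Subunits share libraries and vary together, so these counts are not independent draws, and the excess over the share for all genes was not tested.

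The 7 core subunits encoded in the nucleus had small positive changes throughout, from 0.01 to 0.13 with a median of 0.07. Ndufs3, a subunit of the module that binds ubiquinone, had 1017, 1073 and 986 normalized counts in LD-low libraries against 1053, 1119 and 1195 in LD-high libraries, a log2 change of 0.13 ± 0.09 (SE) with groups that overlapped. Ndufs8, which carries a pair of iron-sulfur clusters, was level between the groups, with 1419, 1504 and 1473 against 1472, 1512 and 1454 normalized counts and a log2 change of 0.01 with an interval from -0.15 to 0.18. Ndufv1 and Ndufv2, which form the NADH-oxidising tip, had log2 changes of 0.03 and 0.04, and Ndufs1, the largest subunit, one of 0.10.

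The accessory subunits of the matrix arm held the highest share of separated groups. LD-high values lay above all LD-low values in 6 of 9 (66.7%): Ndufa2, Ndufa6, Ndufa7, Ndufa9, Ndufs4 and Ndufs6. This held for 12.7% of all tested genes, and differences between the role groups were not tested. The median log2 change of these 9 subunits was 0.16. Ndufa9, an NADPH-binding subunit near the joint of the arms (NCBIM37, chromosome 6, 126771881 to 126799162), had the smallest p of all 43 members. It had 2438, 2520 and 2229 normalized counts in LD-low libraries against 2876, 2765 and 2730 in LD-high libraries. All LD-high libraries lay higher, with means of 2396 ± 150 and 2790 ± 77 (SD, n = 3 each), a log2 change of 0.22 ± 0.07, an interval of 0.07 to 0.38 and an adjusted p of 0.110.

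Ndufs4, a subunit of the matrix arm whose loss in mice causes an encephalopathy like Leigh syndrome, had 461, 494 and 524 normalized counts in LD-low libraries against 535, 667 and 536 in LD-high libraries. The groups did not overlap, but LD-high replicate 2 stood well above the others, and the log2 change of 0.23 ± 0.12 had an adjusted p of 0.307. Without that library it was 0.12 (adjusted p 0.644 in limma). Ndufs6, a zinc-binding subunit of the same arm, had 227, 223 and 258 against 281, 268 and 291, a log2 change of 0.25 ± 0.14. In the other direction, Ndufa5 had 203, 254 and 213 in LD-low libraries against 201, 243 and 199 in LD-high libraries. Its groups overlapped almost wholly, with a log2 change of -0.06 and an interval from -0.40 to 0.28. Ndufv3 was the other matrix arm subunit below 0 (-0.02).

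The 18 accessory subunits of the membrane arm in the table had a median log2 change of 0.11, with 16 above 0. LD-high values were separated upward in 5 (Ndufa8, Ndufa10, Ndufb5, Ndufb8 and Ndufb9), or 27.8%, against 12.7% of all tested genes. Ndufb5, a single-pass membrane subunit (chromosome 3, 32635912 to 32650488), had 535, 553 and 430 normalized counts in LD-low libraries against 638, 589 and 591 in LD-high libraries. LD-low replicate 3 was the lowest by a wide margin, and the log2 change was 0.27 ± 0.12 with an adjusted p of 0.221. Without that library it was 0.16 (adjusted p 0.569 in limma). Ndufa10, a subunit related to nucleoside kinases (chromosome 1, 94335587 to 94370437), had 1496, 1447 and 1341 in LD-low libraries against 1581, 1589 and 1710 in LD-high libraries. All its LD-high values were higher, with a log2 change of 0.19 ± 0.08 and an adjusted p of 0.207. Ndufa3 went the other way, with 408, 462 and 503 in LD-low libraries against 340, 456 and 391 in LD-high libraries. Its groups overlapped and its log2 change was -0.22 ± 0.13 (adjusted p 0.392), or -0.11 without LD-high replicate 1. Ndufb2 was the other member of the arm below 0 (-0.09, interval -0.47 to 0.29).

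Ndufab1, the mitochondrial acyl carrier protein, is found in both arms and also carries acyl chains in mitochondrial fatty acid synthesis. It had 559, 655 and 573 normalized counts in LD-low libraries against 564, 683 and 691 in LD-high libraries. The lowest LD-high library lay within the LD-low range, and the log2 change was 0.11 with an interval from -0.13 to 0.36. Ndufa4 had 608, 600 and 675 against 656, 751 and 653, a log2 change of 0.13 with an interval from -0.09 to 0.35.

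The assembly factors went in both directions. Their median absolute log2 change was 0.19, against 0.11 for the structural subunits and 0.14 for all tested genes. Their median standard error was 0.12, against 0.11 for the structural subunits. The SD of log2 levels within groups had a median of 0.14 for the assembly factors against 0.09 for the structural subunits. The difference in spread was not tested. Ndufaf4 acts with Ndufaf3 in building the ubiquinone module (Ndufaf4: chromosome 4, 24825230 to 24832148). It had 452, 532 and 565 normalized counts in LD-low libraries against 406, 423 and 452 in LD-high libraries. The groups met at one end, where the highest LD-high library reached the lowest LD-low one (452.5 and 451.9), and the log2 change was -0.27 ± 0.12 with an interval of -0.52 to -0.01 and an adjusted p of 0.228. Its partner Ndufaf3 had 419, 396 and 465 against 407, 377 and 464, which overlapped throughout (log2 change -0.04, interval -0.30 to 0.23).

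Ndufaf6, a factor needed for the membrane part that holds ND1 (chromosome 4, 10978192 to 11003352), had 171, 186 and 203 normalized counts in LD-low libraries against 127, 158 and 165 in LD-high libraries. All LD-high values lay lower, with a log2 change of -0.32 ± 0.18, an interval of -0.69 to 0.06 and an adjusted p of 0.334. Without LD-high replicate 1 the change was -0.20. Ndufaf2, a paralog of the subunit Ndufa12 that acts late in the building of the matrix arm (chromosome 13, 108842784 to 108948819), went the other way, with 95.4, 97.4 and 96.6 in LD-low libraries against 99.1, 136 and 145 in LD-high libraries. The LD-low libraries were almost equal, while LD-high replicate 1 lay just above them and the other LD-high libraries far above. The log2 change of 0.37 ± 0.21 had an adjusted p of 0.348.

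The remaining factors were close to level or imprecise. Ndufaf1, a core factor of the membrane arm assembly complex, had 407, 415 and 477 normalized counts in LD-low libraries against 426, 436 and 401 in LD-high libraries. Ndufaf7, an arginine methyltransferase, had 1396, 1384 and 1254 against 1397, 1578 and 1359. Their log2 changes were -0.04 and 0.10, with overlapping groups. Ndufaf5, a hydroxylase that modifies Ndufs7, was the lowest member, with 83.5, 69.3 and 68.7 against 92.4, 93.0 and 68.5. It rested on as few as 41 reads in a library, and its interval ran from -0.33 to 0.70.

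**Figure D2:**
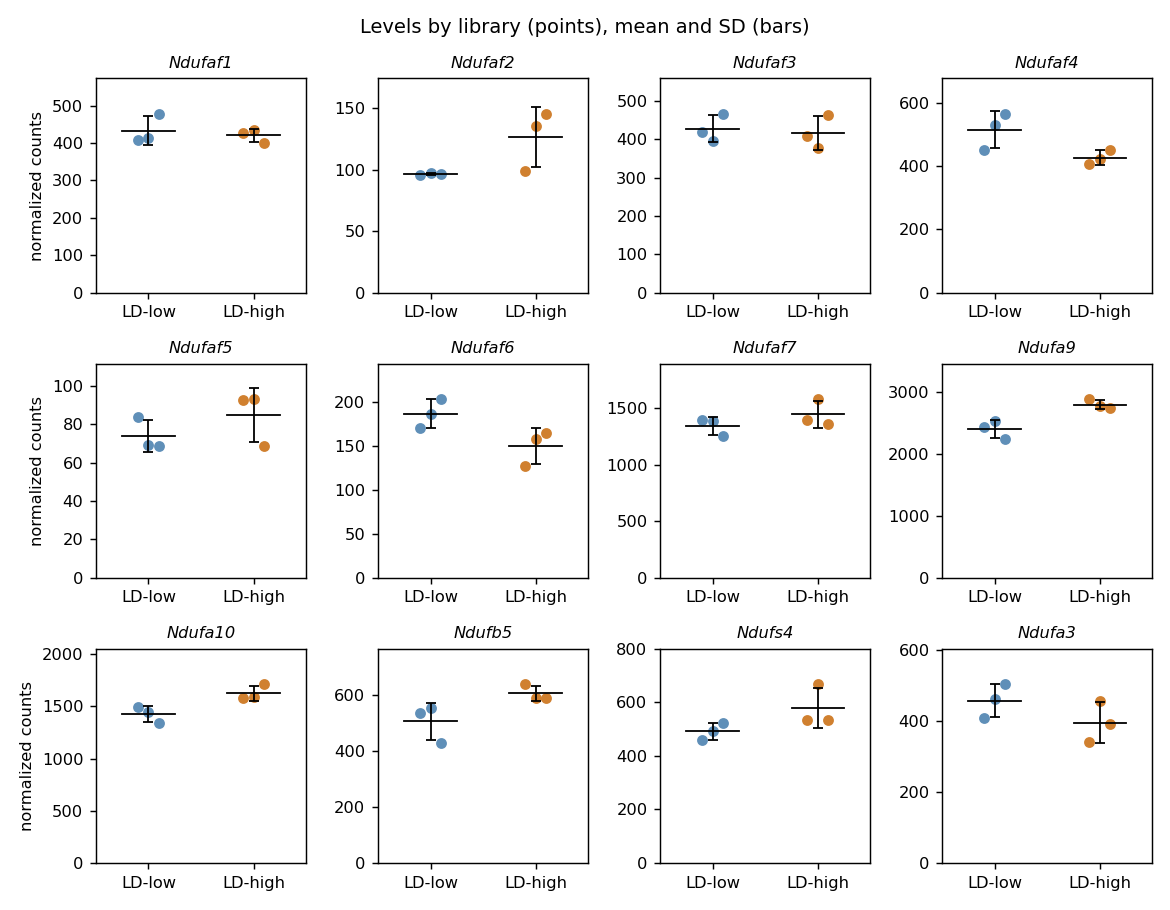
Normalized counts (y axis, from 0) of the 7 assembly factors and 5 subunits in the 3 LD-low and 3 LD-high libraries, as points with the group mean (line) and SD (bars). The points of Ndufa9, Ndufa10, Ndufb5, Ndufs4 and Ndufaf2 are higher in all LD-high libraries, those of Ndufaf6 are lower in all, and those of Ndufa3 and the other assembly factors overlap or, for Ndufaf4, meet at 452.

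Taken by library, the mean log2 level of the 35 structural subunits was 9.21, 9.31 and 9.22 in LD-low libraries against 9.31, 9.40 and 9.33 in LD-high replicates 1 to 3. The groups were separated only narrowly, with LD-low replicate 2 at 9.309 and LD-high replicate 1 at 9.315. Summed over the subunits, the level was 27628 ± 870 normalized counts in LD-low libraries against 29843 ± 477 in LD-high libraries (SD, n = 3 each), 8.02% higher. The summed assembly factors were at 3077 ± 54 and 3070 ± 123, which differed by less than the spread. The structural mean minus the assembly mean was 1.06, 1.15 and 0.99 in LD-low libraries against 1.21, 1.16 and 1.12 in LD-high libraries, so that the groups overlapped, with group means of 1.07 ± 0.08 and 1.17 ± 0.04. Their difference of 0.10 was 0.06 without LD-low replicate 3. As a share of all reads in genes, the 43 genes took 0.120% ± 0.005 in LD-low libraries against 0.125% ± 0.005 in LD-high libraries, which also overlapped.

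**Figure D3:**
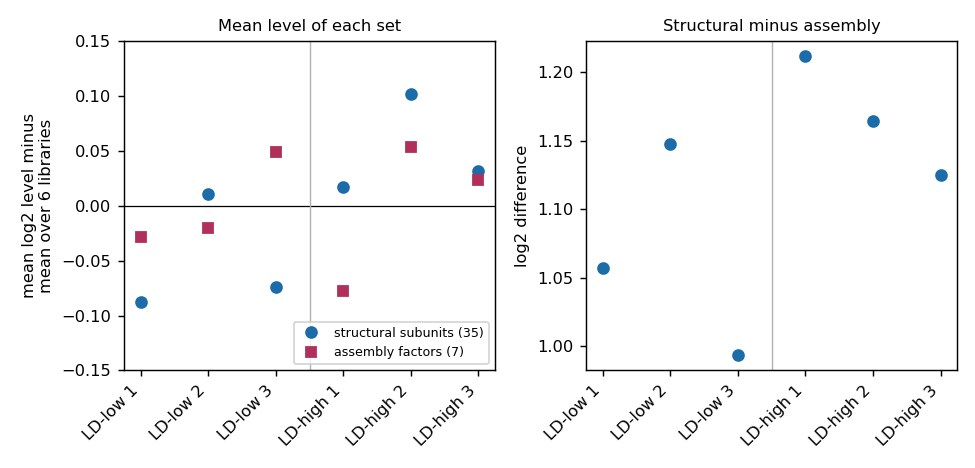
Left, the mean log2 level of the structural subunits (circles) and assembly factors (squares) in each library, minus the same mean over all 6 libraries; right, the structural mean minus the assembly mean. The structural subunits are higher in all LD-high libraries by a narrow margin, while the assembly factors and the difference between the sets overlap between the groups.

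The extremes were unevenly spread over the libraries. LD-high replicate 2 held the highest value for 13 of 35 structural subunits, and LD-low replicates 1 and 3 held the lowest for 11 each. In LD-low replicate 1 no structural subunit was at its highest, and in LD-high replicate 2 none was at its lowest. Without LD-low replicate 3 the structural median was 0.08 and the assembly median 0.03, above 0. The choroid plexus markers, summed, were lowest within each group in replicate 2 (363 in LD-low libraries against 1717 in LD-high), where the structural mean was the highest of its group. In the same replicate the astrocyte sum, almost all of it Slc1a3, was the highest of its group (7795 and 8855) and the myelin sum the lowest (4648 and 5453). The sum of the microglial genes was also the lowest of its group there (1087610 and 1011000), as was that of the endothelium markers (1065 and 1273). In LD-high libraries the neutrophil markers were at 0. The part that these other cells have in the differences was not tested. In bulk libraries fewer cells of a type and less RNA per cell cannot be told apart.

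Genes of the other respiratory complexes also lay mostly above 0. Of 44 tested genes of complexes II to V, 38 lay above 0 with a median log2 change of 0.07. In 15 of them, or 34.1%, the LD-high values were separated upward, a share close to that of the structural subunits, and 0 were called in limma, with 12, or 27.3%, at an unadjusted p under 0.05. The 77 genes of the mitochondrial ribosome had a median of 0.00, with 41 above 0 and 8, or 10.4%, separated upward and 5, or 6.49%, separated downward, and 0 were called, with 3, or 3.90%, at an unadjusted p under 0.05. Over all tested genes 12.7% were separated upward, 11.7% downward, 3.36% called and 19.8% at an unadjusted p under 0.05. Differences between these sets were not tested.

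**Figure D4:**
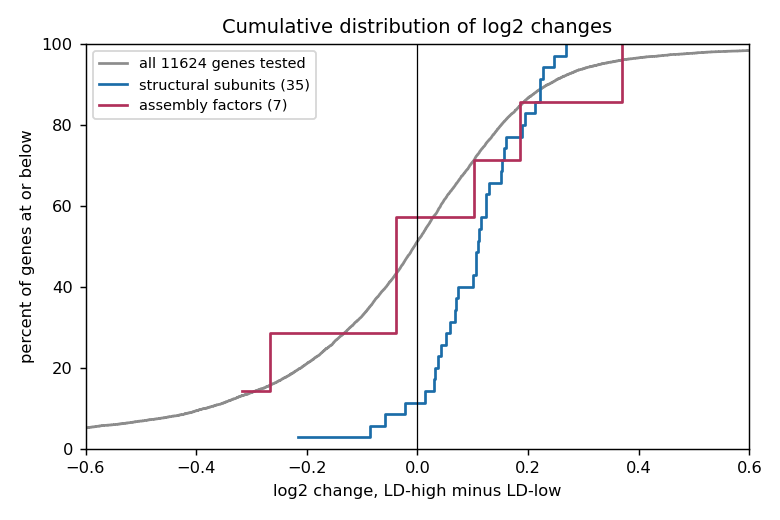
Percent of genes (y axis) at or below a given log2 change (x axis, LD-high minus LD-low) for all 11624 genes tested, the 35 structural subunits and the 7 assembly factors. The curve of the structural subunits crosses 0 at a much lower percentage than that of all genes and ends at 0.27, while the assembly factors spread from -0.32 to 0.37 around the curve of all genes.

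Assembly factors that do not carry the Nduf name lay mostly below 0, by small amounts at the median. Of 13 listed, 10 were tested: 8 lay below 0 and 2 above, with a median of -0.05, where 48.7% of all tested genes lay above 0. Their median absolute log2 change was 0.06, less than their median standard error of 0.11. Of them 0 were called in limma (3.36% of all tested genes) and 0 had an unadjusted p under 0.05 (19.8%). They include 1810043H04Rik, the older symbol of Ndufaf8, at 157 ± 18 normalized counts in LD-low libraries against 152 ± 10 in LD-high libraries (SD, n = 3 each). Timmdc1, a membrane arm factor named after its values were seen, was the only 1 of the 10 with separated groups. Of all tested genes 11.7% were separated downward. Timmdc1 had 116, 149 and 140 normalized counts in LD-low libraries against 102, 103 and 110 in LD-high libraries (log2 change -0.35 ± 0.19, adjusted p 0.335). Acad9 and Ecsit, named after their values were seen because they work with Ndufaf1, had log2 changes of 0.00 and -0.09.

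Of 12 regulators of respiratory genes, 11 were tested, and 0 were called in limma (3.36% of all tested genes) or had an unadjusted p under 0.05 (19.8%). Their median was -0.03, with 7 below 0. The transcription factor genes Nrf1 and Gabpa, known to act on many respiratory promoters and likewise picked with their values known, had changes on the log2 scale of -0.01 ± 0.07 and 0.04 ± 0.08. Ppargc1a, the coactivator gene of mitochondrial biogenesis, was not tested: it had 8.94 normalized counts in LD-high replicate 1 and 0 in the other libraries.

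Promoter windows of 300 bases around the transcript start were given by RefSeq (GRCm38.p6) for 38 of the 43 members. Those of Ndufa9 and Ndufb5, subunits with separated groups, and of Ndufaf4, the assembly factor with the smallest p, are shown 5′ to 3′ on the gene's strand, with motif matches in capitals. The genes were chosen for display after their values were seen. They lie at chr6:126849095-126849394 (minus strand), chr3:32736813-32737112 (plus strand) and chr4:24897833-24898132 (plus strand).
Ndufa9: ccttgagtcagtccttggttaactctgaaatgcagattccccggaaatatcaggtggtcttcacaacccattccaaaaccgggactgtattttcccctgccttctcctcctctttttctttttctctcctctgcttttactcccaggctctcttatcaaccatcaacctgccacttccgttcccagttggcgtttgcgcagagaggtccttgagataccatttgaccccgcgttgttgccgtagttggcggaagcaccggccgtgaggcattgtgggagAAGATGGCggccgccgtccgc
Ndufb5: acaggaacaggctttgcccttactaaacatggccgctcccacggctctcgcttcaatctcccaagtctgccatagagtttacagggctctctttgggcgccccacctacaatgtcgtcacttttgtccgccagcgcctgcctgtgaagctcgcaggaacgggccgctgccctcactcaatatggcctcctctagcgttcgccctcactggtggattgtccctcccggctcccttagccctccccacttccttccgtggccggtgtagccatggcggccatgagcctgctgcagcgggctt
Ndufaf4: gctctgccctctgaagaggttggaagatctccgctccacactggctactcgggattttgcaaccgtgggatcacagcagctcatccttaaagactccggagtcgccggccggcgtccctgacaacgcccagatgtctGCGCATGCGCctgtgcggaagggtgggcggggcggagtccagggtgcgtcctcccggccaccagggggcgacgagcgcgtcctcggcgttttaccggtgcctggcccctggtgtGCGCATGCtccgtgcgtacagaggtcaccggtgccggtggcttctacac

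The motifs searched, on both strands, were GCATGCGC for NRF1, CCGGAAG for the ETS factors that include GABPA, and AAGATGGC for YY1. Ndufa9 holds a YY1 match at bases 280 to 287 of the window. Ndufaf4 holds NRF1 matches at bases 138 to 145 and 140 to 147, which overlap on opposite strands, and at 252 to 259. Ndufb5 holds no match to these letters. The YY1 letters were found in 7 of 31 structural subunits with a window (22.6%) and in 0 of 6 assembly factors, against 3.19% of 27025 genes with a window and 5.63% of the 8856 tested genes among them. The NRF1 letters were found in 3 of 31 structural subunits and 2 of 6 assembly factors, against 6.48% of tested genes. The ETS letters were found in 5 of 38 members, or 13.2%, against 21.2% of tested genes. A match describes the letters and does not show binding.

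Levels can be compared between genes only per transcript length, here as reads per kilobase of transcript, scaled to the total of reads in genes (RPKM) with the median length of the annotated coding transcripts. On this scale the members spanned from 74.1 for Ndufa9 to 1.53 for Ndufaf5 (means over 6 libraries). The 7 core subunits had a median of 57.9 and lay between 20.9 (Ndufs1) and 63.3 (Ndufv1). The accessory subunits had medians of 28.4 in the matrix arm and 29.4 in the membrane arm, and the assembly factors one of 11.1, with Ndufaf4 (26.6) and Ndufaf7 (22.9) the highest of them. Among the 42 neighbouring pairs in this order, 39 had ranges over the 6 libraries that overlapped. The 3 that did not were Ndufaf1 above Ndufb4, Ndufc1 above Ndufb2, and Ndufb2 above Ndufaf5. The scale is approximate, since the transcripts in use in these cells were not determined.

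**Figure D5:**
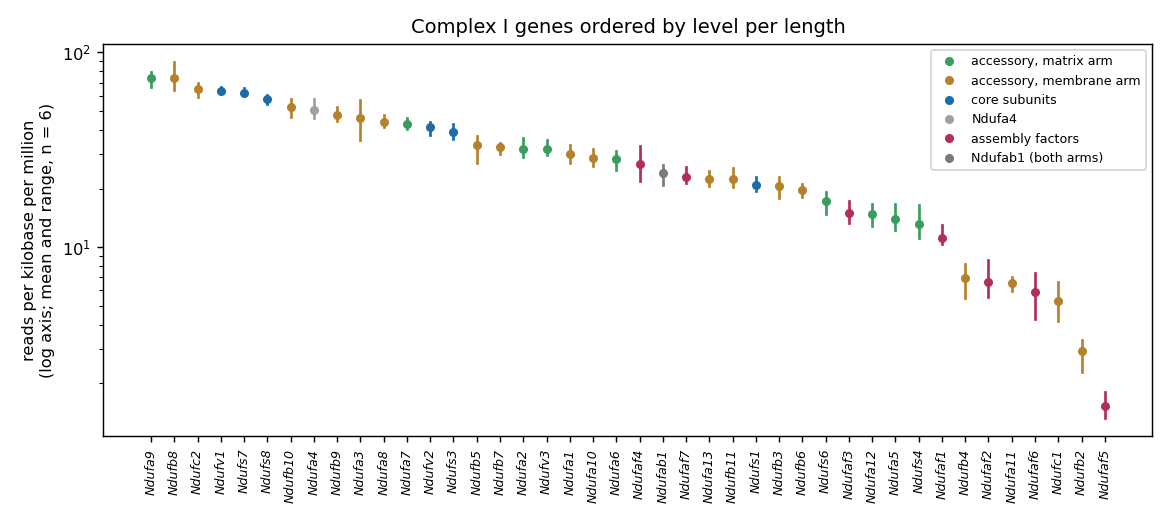
RPKM (y axis, log scale) of 42 of the 43 genes, as the mean (point) and range (line) over 6 libraries, coloured by role and ordered by level. The core subunits shown lie between 20.9 and 63.3, and 5 of the 7 assembly factors lie below 16.

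Some rows are uncertain. The strand setting of the counts is not given, and exons of 9 structural subunits overlap another annotated gene model. The largest overlaps were those of Ndufb6 (39.0% of its exon length, a transcript on the opposite strand) and Ndufa13 (30.2%, Tssk6 on the opposite strand). The 26 structural subunits without such an overlap had a median log2 change of 0.11, with 23 above 0. RefSeq lists copies or pseudogenes of Ndufa11, Ndufa12, Ndufab1, Ndufb4 and Ndufs6, whose reads could be split or lost in counting.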

How the data were processed

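Microglia sorted by BODIPY into LD-low and LD-high fractions were compared, with 3 libraries in each group. The deposited values are a signal, gene read counts that the authors divided by 1 size factor per library. Per the submitters' processing notes, reads were checked with FastQC 0.11.4 and mapped to mm9 with STAR 2.5.1b, and DESeq2 was used. No source used here gives the annotation or strand setting. Dividing each value by the worth of 1 read gave whole reads for 100% of values (tolerance 0.01). Size factors lay between 0.599 and 1.43, and 3 reads corresponded to 2.11 to 5.01 normalized counts.

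Genes with at least 10 normalized counts in at least 3 libraries were tested (11624 of 14148) on log2(value + 1) with limma 3.58.1 in R 4.3.3, using a mean-variance trend, Benjamini-Hochberg adjustment over all genes and a threshold of 0.05. Changes of low genes are understated on this scale. edgeR 4.0.16, which called 377 genes, and DESeq2 1.42.0, which called 729, were run on the recovered reads, and limma called 390. The limma script was tested on simulated data. Members were all symbols beginning with Nduf, and roles came from textbook knowledge. Values per library are given for every Ndufaf gene and, in each role group, for the 2 members with the smallest p and those with the lowest and highest change; other genes named with values were chosen after their values were seen. The members and lists were chosen with earlier results of these data known. Of 54 Nduf symbols in RefSeq, 43 were in the table; Ndufs5 and Ndufb1 are not analysed here. Positions and transcript lengths came from GENCODE on NCBIM37 (mm9), where 13681 of 14148 symbols matched. Pooled mice and amplified cDNA limit precision in ways the read number does not show. Values of 1 member by itself are not reported here, and it stays in the counts and medians.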

Additional observations from a re-analysis of the deposited data

How the results depend on the processing

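Over 19 alternatives (other scalings, filters, pseudocounts, tools, length or GC correction, the replicate block, each library left out), the structural median stayed above 0, between 0.07 and 0.14, and structural minus assembly between 0.06 and 0.14. The assembly median ran from -0.08 to 0.03 and lay above 0 with GC correction (0.01, added after seeing the data), without LD-low replicate 3 (0.03) or LD-high replicate 2 (0.03). Leaving out each library in turn gave assembly medians from -0.068 to 0.034. Calls over all genes, 390 in limma, were 252 with quantile scaling, 15 without the trend, 729 in DESeq2 and 43 to 407 with a library left out (68 and 43 without LD-low replicates 2 and 3, and 229, 199 and 89 without LD-high replicates 1, 2 and 3). With equal totals 351 were called, 118 higher and 233 lower, against 178 and 212, and the median of all genes lay at -0.05. Members called were 0 in 18 alternatives and 1 with the replicate block (Ndufa9, adjusted p 0.0403 in limma; 0.130 to 0.323 with a library left out), which called 1090 genes. Deviations of same-numbered libraries correlated at 0.16, 0.13 and 0.06, and those of unlike numbers at -0.13 to -0.02, so that every library correlated best with its own number. The labels do not say whether same-numbered libraries come from the same pool. The main fit therefore has no block, and these correlations do not settle the pairing. The sign of Ndufs8, Ndufaf3, Ndufa5 and Ndufaf1, none of them called, differed in 4, 3, 2 and 1 alternatives. A library left out moved the changes of Ndufs3, Ndufa4, Ndufab1, Ndufaf5 and Ndufaf7, none of them called, by over 1.5 times, to 0.08 at the lowest for Ndufs3, 0.06 for Ndufa4 and Ndufab1, 0.11 for Ndufaf5 and 0.04 for Ndufaf7. Ndufaf5 had the fewest reads of the members in a library (41) and the largest standard error (0.24), and the part of depth in this was not tested.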
